A study of Mus musculus with 2 samples.

Results

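*Ccnd2* and *Top2a* are 2 genes of the mouse cell cycle that were mapped in sections of the embryonic forebrain. They were taken by name from the 500 genes of the Vizgen Pan Neuro panel, and no threshold on a measured value was used. Of a list of 40 cell cycle genes only 3 were on the panel, and *Cdkn1a*, which encodes the cell cycle inhibitor p21, was the third. The series held 1 coronal section of 10 µm from a control head and 1 from a KO head, both flash-frozen at E16.5, embryonic age in days, and imaged by MERFISH, in which single RNA molecules are read out in place through rounds of fluorescent barcodes. The control embryo carried Sst-Cre and a tdTomato reporter. The KO embryo carried the same alleles together with *Dnmt1* loxp2, a conditional allele of the maintenance DNA methyltransferase, so that deletion was directed to cells in which the *Sst* locus drives Cre. With 1 section per genotype no test of genotype was possible. Intervals below are exact 95% intervals for counting error alone, and genotype, embryo, section level and imaging run cannot be told apart.

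Cyclin D2, the product of *Ccnd2*, binds cyclin-dependent kinases and carries cells from G1 into S phase. Its mRNA is known to travel along the long basal process of radial glia, the stem cells of the cortex, to the endfeet that these cells press against the pia. Topoisomerase IIα, the product of *Top2a*, untangles replicated DNA, and its transcript rises in S, G2 and M phase, so that it marks cycling cells. In the forebrain at this age divisions take place close to the ventricles, in the ventricular and subventricular zones of the pallium, the future cortex, and of the ganglionic eminences below it, which produce striatal neurons and interneurons. In the deposited tables *Ccnd2* was represented by ENSMUST00000000188, which the GENCODE annotation places on the minus strand of chromosome 6 at 127102125 to 127128023 (GRCm39), with 5 exons and a spliced length of 6330 bases. *Top2a* was represented by ENSMUST00000068031, on the minus strand of chromosome 11 at 98883769 to 98915041, with 36 exons and 5247 bases. The tables name no genome build, and the probe sequences were not among the sources used here.

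Both genes were among the most abundant of the panel. *Ccnd2* gave 257213 of the 2842355 panel transcripts counted in control cells, which placed it 1st of 500, and 707605 of 13437174 in KO cells, where it was 2nd. *Top2a* gave 34582 transcripts in the control section, where it was 12th, and 232881 in the KO section, where it was 8th. The KO section was read more deeply, with a median of 101 panel transcripts per segmented cell against 20 in the control section. Levels are therefore given as CPM, the usual counts-per-million scale taken over panel transcripts, over cells with 20 or more panel transcripts, which left 55231 of 108533 control cells and 101250 of 110004 KO cells. Shares of cells with a transcript were taken after each cell had been thinned to 25 transcripts. Blank barcodes, which match no gene, had a median of 87.4 CPM in the control against 87.9 CPM in the KO section and reached at most 292 CPM. The panel had no probe for *Dnmt1*, which left the genotype labels unchecked against its transcript.

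The 2 genes drew different maps of the same tissue. *Top2a* filled a band along the ventricles and was low elsewhere in the brain. *Ccnd2* filled the same band, most strongly on the ganglionic side, and in addition traced a thin line around the whole outer edge of the pallium. This line followed the edge into the cleft between the hemispheres. Both patterns were seen in both sections. Outside the brain, where 23.2% and 23.0% of all *Top2a* molecules in the control and KO sections lay, *Top2a* was spread through the tissue at 10023 and 17876 CPM, close to its mean level in the nonpallial brain (9643 and 16574 CPM).

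**Figure D1:**
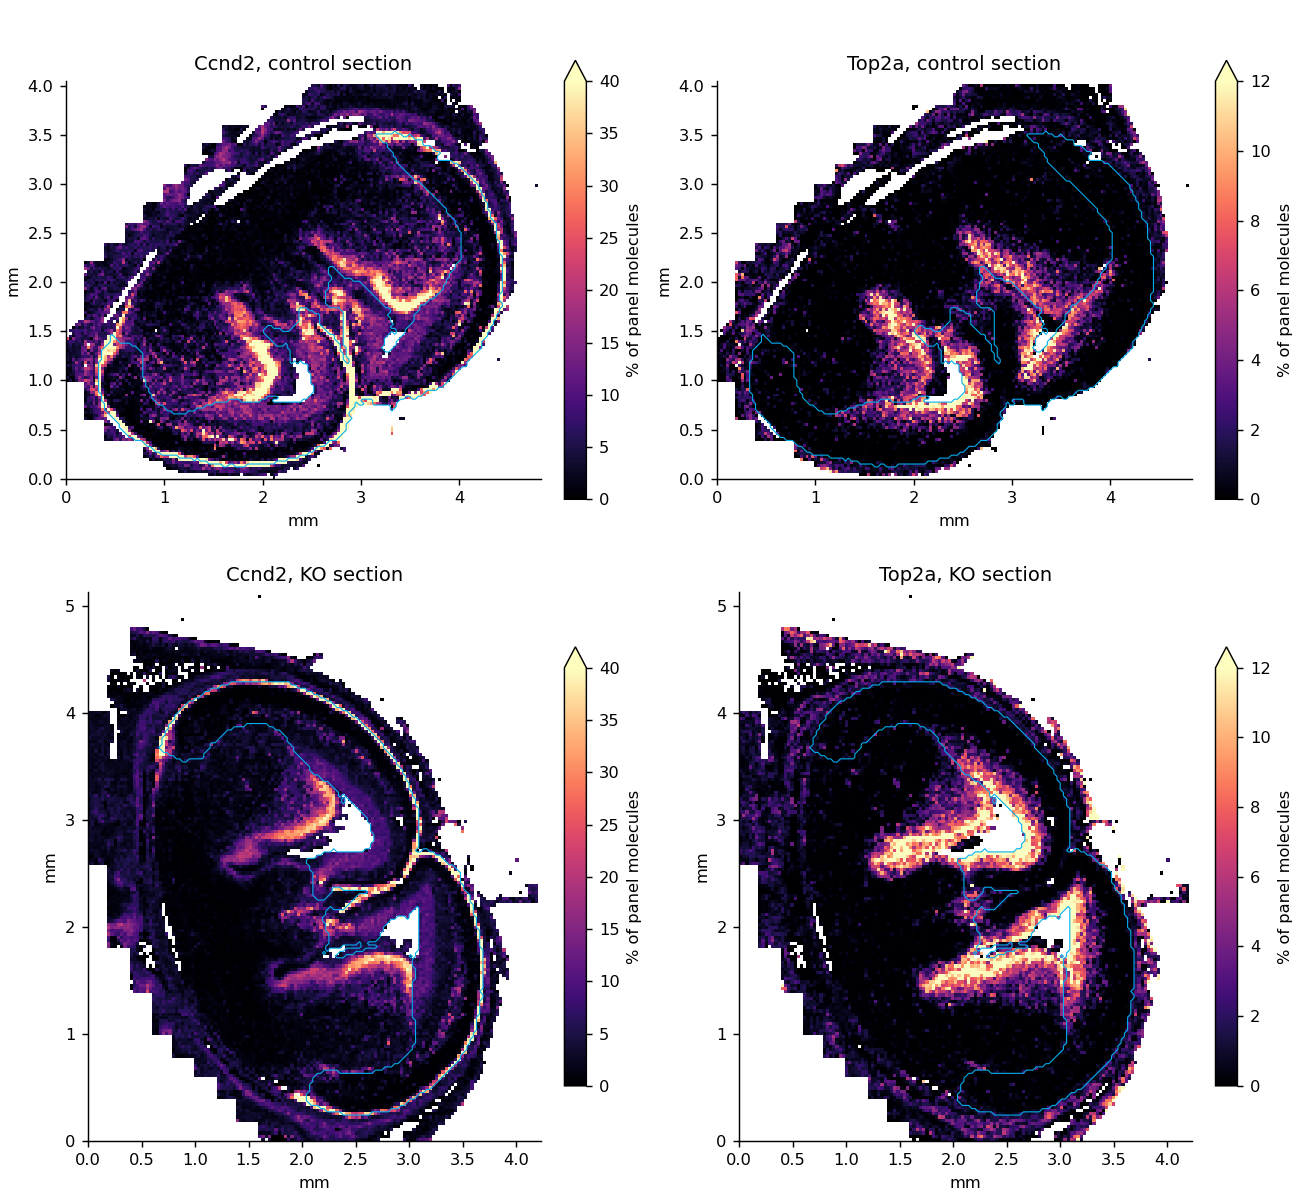
Share of all panel molecules that were Ccnd2 (left, colour scale to 40%) or Top2a (right, colour scale to 12%) in squares of 30 µm, in the control section (top) and the KO section (bottom). Axes are in mm, white squares hold fewer than 15 molecules, and the blue line is the outline of the pallium. Ccnd2 traced the outer edge of the pallium and the wall of the ventricles in both sections, whereas Top2a in the brain was highest along the ventricles and had no line at the outer edge.

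At the outer edge of the pallium *Ccnd2* made up most of what the panel detected. Counting every decoded molecule, within a cell or not, it supplied 64.4% of panel molecules in the outermost 10 µm of the control pallium and 52.2% in the KO pallium. The share fell over the outermost 70 µm. Here and below, paired values without a label give the control section first. The share was 33.3% in the control against 10.6% in the KO section at 30 to 40 µm, and 6.93% and 2.44% at 70 to 80 µm. Deeper in the pallium it rose again, to 9.99% at 110 to 120 µm in the control and 4.39% at 180 to 190 µm in the KO section. Outside the edge it was 50.8% and 28.4% at 10 to 20 µm and 9.00% and 4.81% at 40 to 50 µm. Per unit of area, *Ccnd2* density in the outermost 10 µm was 291 molecules per 1000 µm² in the control against 990 in the KO section, while all other panel genes together gave 159 and 891. The strip from 20 µm outside to 40 µm inside the edge covered 3.87% of the control tissue and 3.32% of the KO tissue. It held 29.3% and 22.3% of all *Ccnd2* molecules, against 3.03% and 2.90% of the molecules of the other genes.

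*Top2a* had no peak in the outermost 10 µm of the pallium. The same strip held 1.98% of *Top2a* molecules in the control against 1.75% in the KO section, less than its share of the area. *Top2a* supplied 0.426% of panel molecules in the outermost 10 µm in the control against 0.764% in the KO section, and inside the pallium its share was lowest at 80 to 90 µm in the control (0.119%) and at 140 to 150 µm in the KO section (0.0944%). Outside the edge the KO share had a local maximum of 1.78% at 10 to 20 µm, against 1.26% at 30 to 40 µm and 2.40% at 90 to 100 µm. The control share at 10 to 20 µm was 0.814%, with *Ccnd2* at 50.8% of the total, which lowers the share of *Top2a*. Per 1000 µm², control *Top2a* rose from 2.84 molecules at 40 to 50 µm outside to 3.62 at 10 to 20 µm. The outermost 10 µm of the control pallium had 1.93. KO values at these steps were 15.8, 23.1 and 14.5. *Top2a* shares without *Ccnd2* in the total were not computed. *Reln*, which marks Cajal-Retzius neurons just below the pia, was highest at 10 to 20 µm in both sections, 1 step deeper than *Ccnd2*. The markers of radial glia cell bodies (7 of the listed genes were on the panel) gave 20116 and 16636 CPM of the molecules other than the 2 genes in the outermost 10 µm and 4953 and 3157 at 90 to 100 µm, so that they too were higher at the edge than in the cortical plate, but by a smaller factor than *Ccnd2*. These markers were also present outside the brain, with 23380 and 22762 CPM at 10 to 20 µm from the edge and 13128 and 12416 CPM at 40 to 50 µm.

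**Figure D2:**
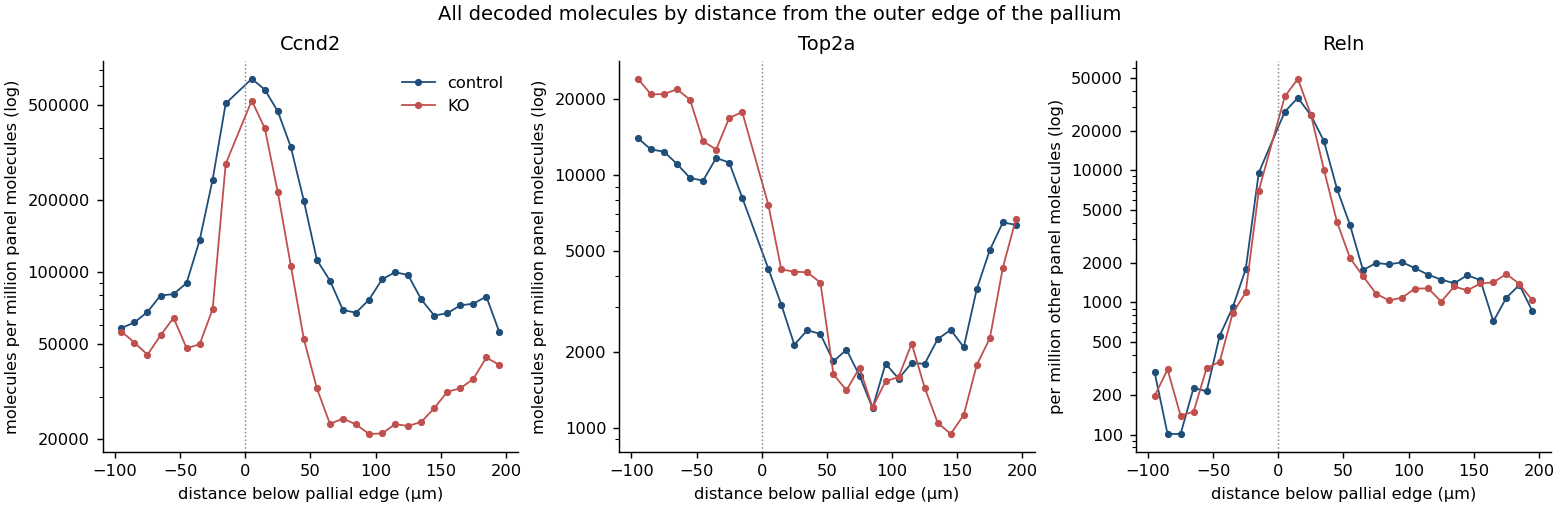
Ccnd2 and Top2a in CPM of all panel molecules and Reln in CPM of the molecules other than these genes (logarithmic axes) in steps of 10 µm from the outer edge of the pallium, with negative distances outside the brain. Blue is the control and red the KO section, and the dotted line marks the edge. Ccnd2 peaked in the outermost 10 µm at 643920 in the control against 522261 in the KO section, and Top2a had no maximum there.

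A high *Ccnd2* level at the edge was seen in several cell classes. Among cells centred within 40 µm of the edge, called the pial zone here, 93.2% of 1332 control cells and 83.2% of 2184 KO cells had a *Ccnd2* transcript after thinning, against 54.2% and 43.9% of pallial cells below it. The level was 511772 CPM in the control pial zone and 304296 CPM in the KO pial zone, compared with 79428 and 40135 CPM in the rest of the pallium. *Reln*/*Ndnf* cells, defined by these 2 Cajal-Retzius genes, had 610431 CPM in the control against 423221 CPM in the KO pial zone. The few cells of this class deeper in the pallium were about as high or higher, with 600722 CPM in the control (24 cells) and 451489 CPM in the KO section (41 cells). Microglia or macrophage-like cells, which are not derived from radial glia, had 507820 CPM there in the control section (30 cells) and 300746 CPM in the KO section (29 cells), against 214209 and 83934 CPM in cells of this class deeper in the pallium. Endothelial-like cells of the pial zone had 411642 and 322720 CPM, against 239461 and 134914 CPM deeper in the pallium. Deep-layer neuron-like cells, with 36310 and 16871 CPM deeper in the pallium, had 258563 and 136667 CPM in the pial zone.

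A larger share of both genes than of most genes lay in no segmented cell of the pallium. In the pallium 29.7% of *Ccnd2* molecules in the control (interval 29.5 to 29.9%) against 26.8% in the KO section (26.7 to 27.0%) had no cell, against 15.8% and 18.1% for the other panel genes together. This placed *Ccnd2* above 99.1% of the 219 genes with 500 or more pallial molecules in the control and 99.5% of 392 genes in the KO section. Within the pial zone the share was 32.9% and 28.3%, against 25.2% and 21.7% for the other genes. Below the pial zone it was 26.5% and 25.6%, against 15% and 17.8%. The pallial share of *Top2a* was 21.8% in control and 24.7% in KO tissue, above 89.5% and 99% of the same genes, and below the pial zone it was likewise 21.8% and 24.7%. Near the pallial ventricles, within 150 µm, *Ccnd2* was close to the other genes, at 20.9% against 20.4% in the control and 22.1% against 20.8% in the KO section. *Top2a* had 24.6% (23.6 to 25.7%) and 25.6% (25.3 to 26.0%) in no cell near the ventricles, above the 20.4% and 20.8% of the other genes, and 23.2% (19.4 to 27.4%) and 22.9% (21.3 to 24.5%) in the pial zone, a difference beyond counting error in the KO section alone.

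Along the pallial ventricles *Top2a* had its highest level. In control cells 20 to 40 µm from a ventricle it was 85814 CPM, it peaked at 104573 CPM at 40 to 60 µm, and it fell to 47443 CPM at 150 to 200 µm, 13935 CPM at 250 to 300 µm and 2612 CPM beyond 600 µm. The KO section had its peak 1 step closer to the ventricle, with 135801 CPM at 20 to 40 µm, followed by 113279 CPM at 40 to 60 µm, 38696 CPM at 150 to 200 µm, 13783 CPM at 250 to 300 µm and 2084 CPM beyond 600 µm. The 0 to 20 µm step was lower, with 7082 and 35176 CPM, and rested on 67 control and 119 KO cells. The level within 100 µm exceeded that beyond 300 µm by a log2 difference of 4.18 (interval 4.09 to 4.26) in control cells and 4.45 (4.42 to 4.48) in KO cells.

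*Ccnd2* had a much shallower profile in the pallium. It was 116650 CPM at 40 to 60 µm, 113774 CPM at 150 to 200 µm and 128124 CPM at 300 to 400 µm from a ventricle in the control section, and dropped to 41267 CPM only beyond 600 µm. In the KO section it was 85702, 69468 and 56656 CPM at the same distances and 16321 CPM beyond 600 µm. Both genes were thus present in the ventricular wall of the pallium, where 91.7% of control and 85.2% of KO cells within 150 µm had a *Ccnd2* transcript after thinning and 71.3% and 77.5% had a *Top2a* transcript. In the cortical plate and the layers next to it (40 to 200 µm below the edge and more than 200 µm from a ventricle), 42.0% and 24.1% had *Ccnd2*, but only 4.64% and 2.42% had *Top2a*.

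In the nonpallial brain, which includes the ganglionic eminences, the *Ccnd2* maximum lay farther from the ventricle than the radial glia markers. *Ccnd2* rose from 71120 CPM at 0 to 20 µm to 430822 CPM at 120 to 150 µm in the control section, where it supplied 43.1% of all panel transcripts in cells. In the KO section it rose from 57422 CPM to 222566 CPM at 100 to 120 µm. The radial glia markers were highest at 40 to 60 µm, with 233668 CPM in the control against 225185 CPM in the KO section. *Dlx1*, which marks ganglionic progenitors and the inhibitory neurons they produce, was highest at 120 to 150 µm in both sections (13786 and 19165 CPM), in or next to the step of the *Ccnd2* peak. *Top2a* was nearly level from 60 to 120 µm, at 68182 to 67288 CPM in the control, and at 98315 to 89318 CPM in the KO section. Over the same steps the *Ccnd2* share of the total rose from 28.2% to 41% in the control and from 15.9% to 22.3% in the KO section. A rising *Ccnd2* share lowers the CPM of every other gene. Relative to cells beyond 600 µm, *Ccnd2* within 150 µm was higher by a log2 difference of 3.02 (2.98 to 3.06) in control cells and 3.49 (3.47 to 3.50) in KO cells. Within 150 µm of a ventricle *Ccnd2* was higher on the nonpallial side, with 286246 against 108092 CPM in the control and 168246 against 87439 CPM in the KO section. *Top2a* was 54987 against 71294 CPM and 84707 against 89320 CPM. These totals include *Ccnd2*, which supplied 28.6% and 16.8% of them on the nonpallial side, against 10.8% and 8.74% on the pallial side. How the *Top2a* levels compare without *Ccnd2* in the total was not tested.

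**Figure D3:**
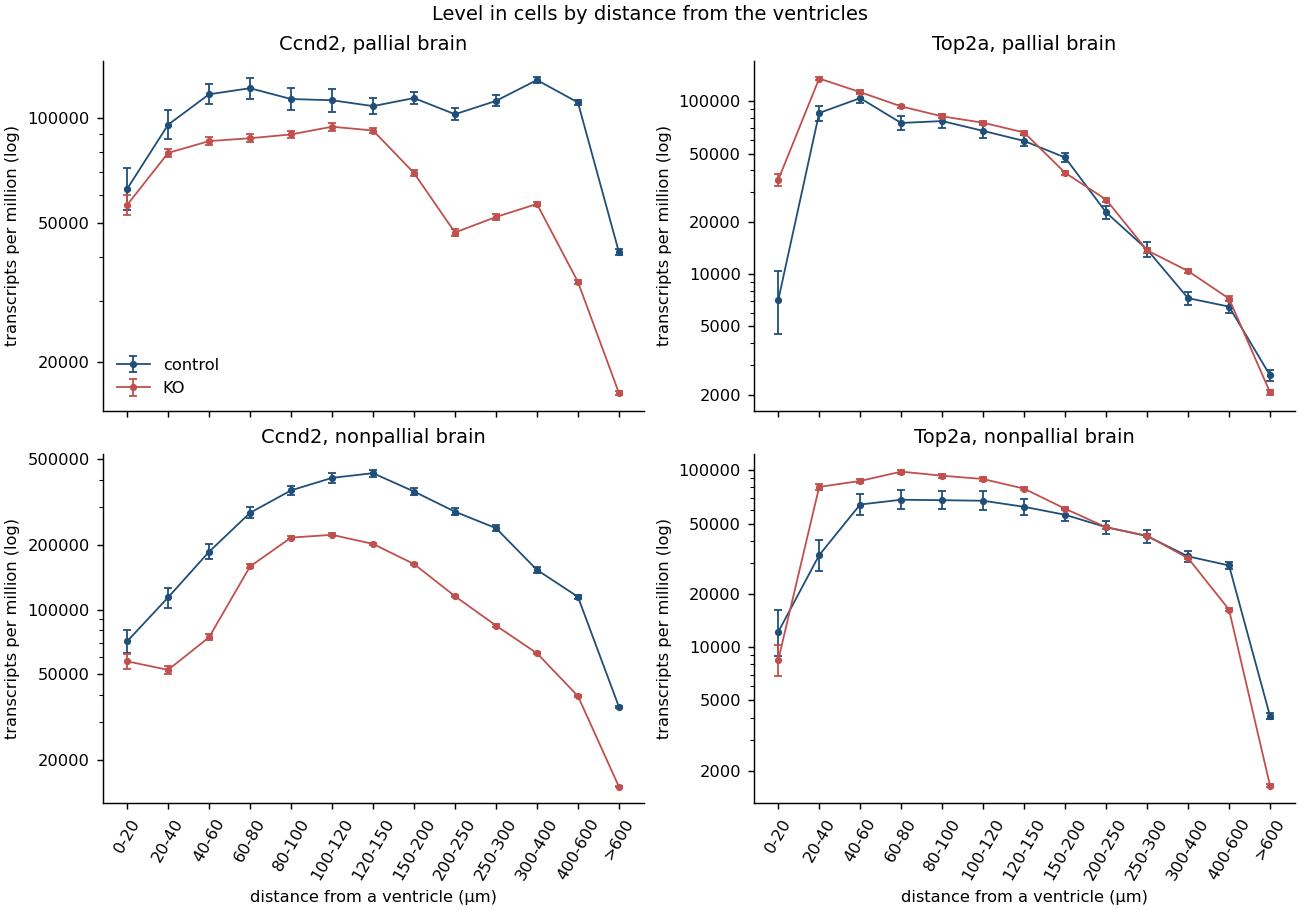
Level of Ccnd2 (left) and Top2a (right) in cells by distance from the nearest ventricle, in CPM on logarithmic axes, for the pallial brain (top) and the nonpallial brain (bottom). Points are sums over the cells of each step with exact 95% counting intervals, blue for the control and red for the KO section. Ccnd2 in the nonpallial brain peaked at 120 to 150 µm in control and 100 to 120 µm in KO cells, and pallial Top2a peaked at 40 to 60 µm and 20 to 40 µm.

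The same contrast appeared when the pallium was divided from edge to ventricle into 10 steps of relative depth. *Top2a* climbed from 1415 CPM in step 2 to 76524 CPM in step 9 of the control section and from 1409 CPM to 117271 CPM in steps 2 and 10 of the KO section. *Ccnd2* had 280984 and 134504 CPM in step 1 and its lowest level in step 2, with 53678 and 18135 CPM. From there it stayed between 90325 and 117608 CPM over steps 3 to 10 in the control, and rose from 33387 to 87644 CPM between steps 3 and 9 in the KO section, with a dip to 43900 CPM in step 5.

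Cells were assigned to classes from their marker transcripts. Levels by class are given away from the pial edge. Progenitors and their close progeny had both genes. Radial glia-like cells had 99224 CPM of *Ccnd2* and 40954 CPM of *Top2a* in the control section, and 85859 and 72851 CPM in the KO section. They included 291 control and 811 KO cells outside the brain, with 14375 and 24269 CPM of *Top2a*. Radial glia-like cells of the pallium had more *Top2a*, with 56008 and 91240 CPM, than those of the nonpallial brain, with 36763 and 67626 CPM. *Eomes* encodes a transcription factor of intermediate progenitors, and it was the one gene of that list on the panel. Cells with 2 or more *Eomes* transcripts had 119259 CPM of *Ccnd2* and 47778 CPM of *Top2a* in the control (68 cells), and 82096 and 59856 CPM in the KO section (2553 cells). *Dlx1* cells, chosen in the same way after the profiles were seen, had 151482 and 35384 CPM in the control section (605 cells), and KO cells of this kind had 85622 and 33791 CPM (9825 cells). The limit of 2 transcripts selects by depth, and it took in 0.123% of control and 2.53% of KO cells for *Eomes*, and 1.11% and 9.87% for *Dlx1*, so the cells of the 2 sections may not be alike and their levels are not compared.

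Most neuronal classes had little *Top2a* and kept some *Ccnd2*. Deep-layer neuron-like cells had 873 and 1361 CPM of *Top2a*, and 1.50% and 2.47% of them had a *Top2a* transcript after thinning. Neurons are known to have left the cycle. The *Top2a* level of this class varied with the place, from 822 and 1028 CPM in the pallium to 1390 and 2600 CPM in the nonpallial brain, and how much of it came from RNA of neighbouring cells was not tested. Striatal neuron-like cells had 1206 and 3837 CPM. Upper-layer or immature projection neuron-like cells stood higher, with 8691 and 22341 CPM. This class was not pallial alone, since 319 of its 3727 control cells and 3197 of its 14167 KO cells lay in the nonpallial brain, with 16480 and 38656 CPM, while its pallial cells had 7501 and 15528 CPM. MGE interneuron-like cells, the class that contains the *Sst* neurons targeted by Cre, had 42538 CPM of *Ccnd2* in the control against 23467 CPM in the KO section, and 4019 and 5619 CPM of *Top2a*. These levels pooled places that differed. Pallial cells of the class had 93745 and 67760 CPM of *Ccnd2* and nonpallial ones 31103 and 18449 CPM, below the nonpallial striatal neuron-like cells with 43904 and 24729 CPM. The lowest *Ccnd2* level was that of *Slc17a6*/*Tcf7l2* cells, named for 2 genes of subcortical glutamatergic neurons, with 10965 and 6228 CPM, and 19.1% and 13.0% of them had a *Ccnd2* transcript after thinning.

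In glial and vascular classes and outside the brain both genes were present. Oligodendrocyte precursor-like cells had 62160 and 43181 CPM of *Ccnd2* and 11616 and 15639 CPM of *Top2a*. Endothelial-like cells had 113112 and 71146 CPM of *Ccnd2* and 14247 and 21666 CPM of *Top2a*. Within this class the pallial cells had more *Ccnd2* (239461 and 134914 CPM) than those of tissue outside the brain (52750 and 39967 CPM). Mural-like cells had 57737 and 44789 CPM of *Ccnd2*, and mesenchymal-like cells, the most frequent class outside the brain, had 45457 and 43190 CPM. Their *Top2a* levels were 10998 and 15727 CPM, and 8125 and 16622 CPM. All of these were above the *Top2a* level of deep-layer neuron-like cells in the same section. Unassigned cells, with too few marker transcripts for a class or a tie between classes, were 29217 in the control against 24577 in the KO section. That was 52.9% and 24.3% of the cells kept, so the class levels leave out a larger part of the control section.

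**Figure D4:**
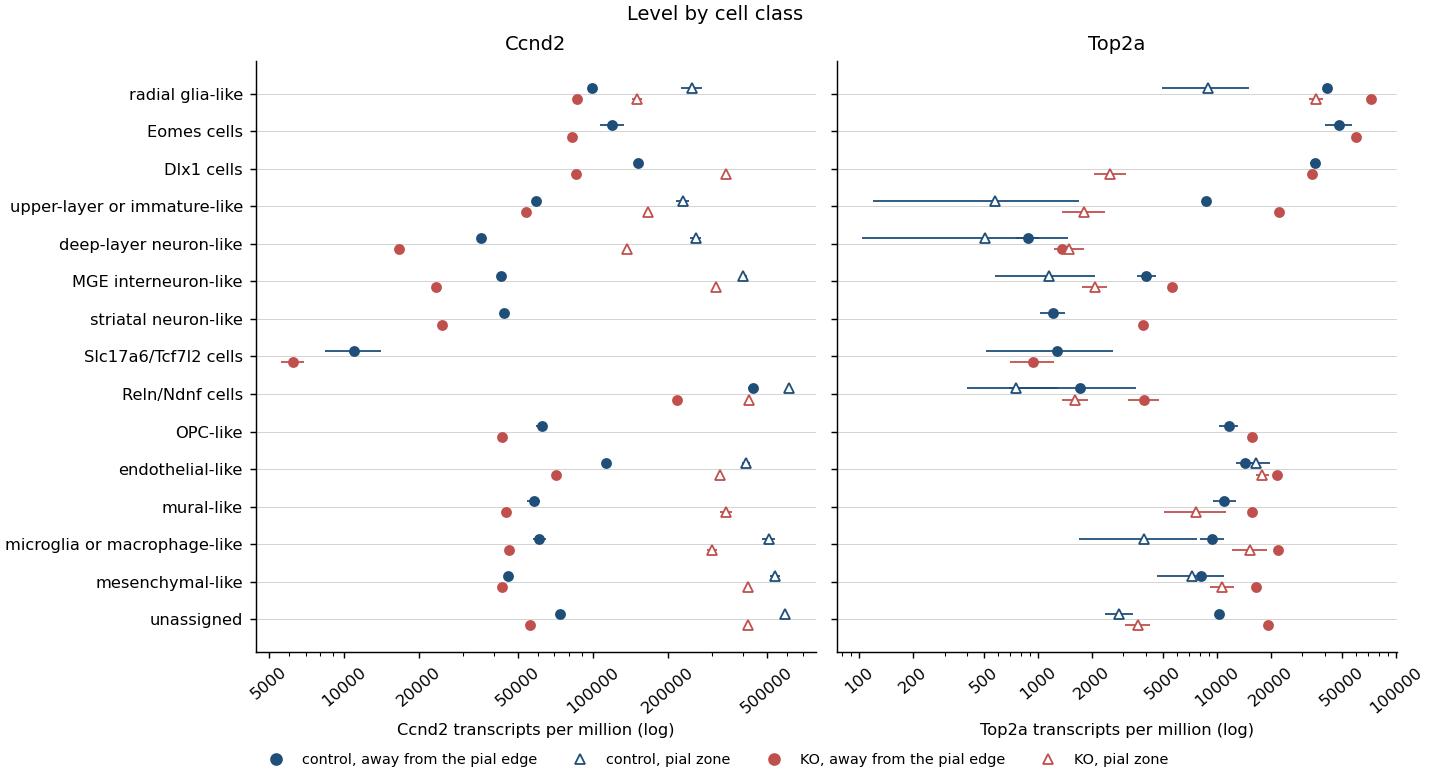
Level of Ccnd2 (left) and Top2a (right) by cell class, in CPM on logarithmic axes with exact 95% counting intervals. Filled circles are cells away from the pial edge, open triangles cells of the pial zone where 20 or more were found, blue the control and red the KO section. Where both are drawn, the pial zone lay to the right for Ccnd2, but for Reln/Ndnf cells the filled circles pool nonpallial cells, and their deeper pallial cells were not clearly lower. Radial glia-like and Eomes cells had the highest Top2a levels.

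Single cells with *Top2a* were more often cells with *Ccnd2*. After thinning, 81.1% of 6745 control cells with *Top2a* had *Ccnd2* (interval 80.2 to 82.0%), against 50.8% of the other cells (50.3 to 51.3%), and in the KO section it was 75.4% of 21736 cells (74.8 to 75.9%) against 38.6% (38.3 to 39.0%). The reverse share was lower, since 22.5% of control and 35.3% of KO cells with *Ccnd2* had *Top2a*. Within strata of cells of like depth the odds of *Ccnd2* were 4.47 times as high in cells with *Top2a* in the control section and 8.25 times as high in KO cells. The latter became 4.52 when the KO counts had been thinned to the depth of the control section. Within 150 µm of the ventricles, where nearly all cells had *Ccnd2*, the odds ratio was 1.72 in the pallium and 4.44 in the nonpallial brain of the control section, and 2.08 and 2.89 in the KO section. Outside the brain it was 1.49 and 1.78.

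The *Ccnd2* level also rose with the *Top2a* count of a cell in the nonpallial brain. Taken as CPM of the other panel transcripts, it was 41975 in control cells without *Top2a*, 156943 in those with 1 transcript, 258826 with 2 and 355756 with 3 or more. In the KO section these values were 17208, 43529, 78016 and 176185. In the pallium below the pial zone the control level rose from 76516 without *Top2a* to 146003 with 1 transcript and then stayed at 133085 and 135924. The KO pallium rose at each step, from 25409 to 46077, 69649 and 97912. Within 150 µm of the ventricles the rise from no *Top2a* to 3 or more transcripts was smaller in proportion. It ran from 103513 to 146754 in the control and from 78666 to 109925 in the KO pallium. In the nonpallial brain it ran from 250595 to 579763 and from 71727 to 276364. How much of the rise in the wider regions came from place was not tested. Outside the brain no such rise was seen, with values that ran from 86490 to 103373 in the control section, while the KO values ran from 56289 to 62004.

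**Figure D5:**
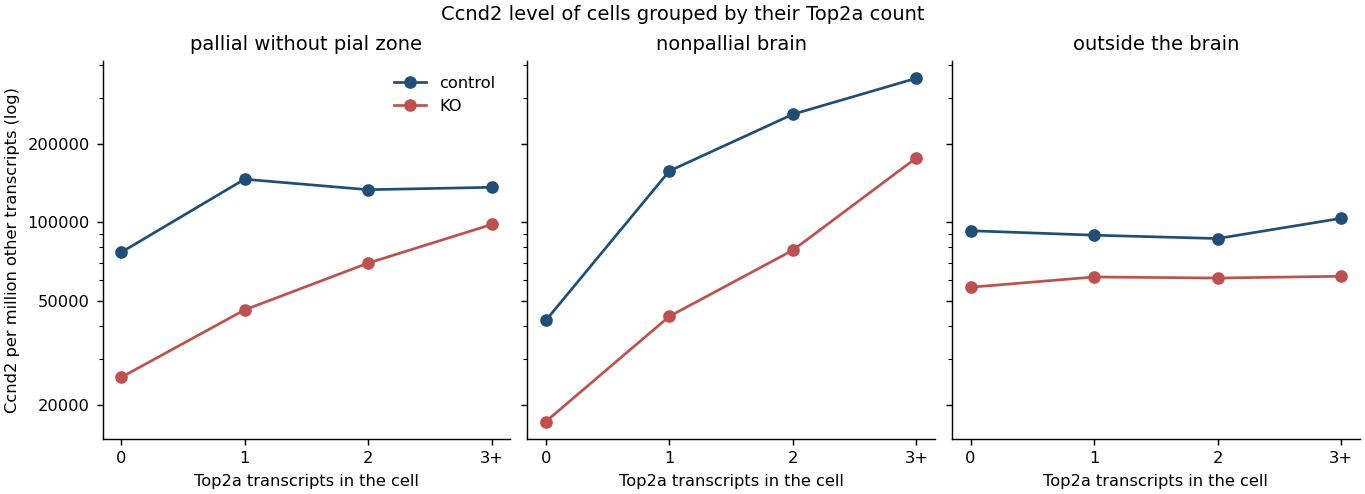
Ccnd2 in CPM of the other panel transcripts (logarithmic axis) in cells grouped by their Top2a count, for the pallium below the pial zone, the nonpallial brain and the tissue outside the brain. Blue is the control and red the KO section, and each point sums all cells of its group. In the nonpallial brain the level rose with each Top2a step in both sections, and outside the brain it was about level. Cells were not matched for distance from the ventricles.

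Cells with *Top2a* had a stronger DAPI signal, a stain for DNA. Among pallial cells of like depth below the pial zone, the median DAPI signal of *Top2a* cells was 1.55 times that of cells without *Top2a* in the control and 1.65 times in the KO section, while their segmented volume was 1.12 and 1.16 times as large. In the nonpallial brain the DAPI ratio was 1.87 and 2.09, with a volume ratio of 1.09 and 1.18. Within 150 µm of the ventricles it was 1.20 and 1.22 in the pallium and 1.71 and 1.68 in the nonpallial brain. The volume ratio there was 1.19 and 1.08 in the pallium and 1.16 and 1.26 in the nonpallial brain. For DAPI per volume it was only 1.06 and 1.08 in the pallium, and 1.59 and 1.26 in the nonpallial brain. Outside the brain the DAPI ratio was 1.16 and 1.10. For cells with *Ccnd2* the DAPI ratio was 1.10 and 1.22 in the pallium and 1.22 and 1.51 in the nonpallial brain. These were below the ratios of *Top2a* cells. Near the ventricles the *Ccnd2* ratio was 1.14 and 1.07 in the pallium. In the KO nonpallial brain it was 1.75 there, above the 1.68 of *Top2a* cells, and only 27 control cells there had no *Ccnd2*. Outside the brain the *Ccnd2* ratio was 1.18 and 1.24 and exceeded that of *Top2a* cells. DAPI sums depend on the segmented outline and were not calibrated between the sections.

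Across 100 µm squares of the whole section the gene most like *Ccnd2* was *Top2a*, with a Spearman rho of 0.60 over 1178 control and 0.69 over 1362 KO squares. It was followed by *Sox9* (0.41 and 0.47), *Mfge8* (0.40 and 0.53), *Nfix* (0.39 and 0.44) and *Tpbg* (0.36 and 0.50). For *Top2a* the closest gene was *Mfge8* (0.65 and 0.75), a secreted protein that is abundant in radial glia, then *Ccnd2*, *Creb5* (0.48 and 0.62), *Iqgap2* (0.46 and 0.61) and *Pmp22* (0.46 and 0.55). Squares next to each other share cells of one tissue, so these values are descriptions. In pallial squares alone the pair came apart. By the lower rho of both sections *Ccnd2* was then closest to *Ndnf* (0.56 and 0.63), a gene of cells near the pia, and *Bmp7* (0.56 and 0.68). In the KO section alone *Bmp7* stood above *Ndnf*. *Top2a* was 18th in this list (0.32 and 0.50), whereas *Top2a* itself was closest to *Tcf7l2* (0.69 and 0.80), *Sox9* (0.69 and 0.83) and *Mfge8* (0.69 and 0.81).

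The lists of genes that set cells with a member apart from cells without it shared *Aldoc*. Cells were divided by their unthinned counts, a division that takes in cells with more transcripts more easily. In *Top2a* cells the radial glia genes *Aldoc* (6.55-fold in the control and 11.4-fold in the KO section), *Aldh1l1* (5.19 and 9.67), *Hopx* (5.05 and 7.69) and *Mfge8* (4.61 and 8.22) led. In *Ccnd2* cells *Hhip* (6.64 and 7.49) and *Shisa3* (4.85 and 5.65), genes of the mesenchymal list, *Creb3l1* (5.13 and 8.71), *Top2a* (5.13 and 8.90) and *Aldoc* (4.46 and 7.06) led. All are ratios of CPM levels computed without the 2 members.

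Between the sections the 2 genes differed in opposite directions. Over all cells *Ccnd2* was 91116 CPM in the control against 52692 CPM in the KO section, a log2 ratio of KO over control of -0.79 (interval -0.80 to -0.78), and *Top2a* was 10260 and 17329 CPM, a log2 ratio of 0.76 (0.74 to 0.78). Neither passed 2-fold, which 5.80% of the 500 panel genes did in one direction or the other. Of the 250 genes in the upper part of the panel by level, 4.80% had a lower log2 ratio than *Ccnd2* and 88.8% had a lower one than *Top2a*. In the pallium *Ccnd2* had a log2 ratio of -1.15 (-1.16 to -1.14), past 2-fold as were 9.00% of panel genes, and *Top2a* had 0.65 (0.62 to 0.68). The latter became 0.26 (0.19 to 0.33) with *Meis2* kept among the subpallial genes of the outline, from which it was dropped after the data were seen. In the nonpallial brain, where 6.40% of genes passed 2-fold, the ratios were -0.49 (-0.51 to -0.48) and 0.78 (0.75 to 0.81). Outside the brain, where 11.4% of genes passed 2-fold, they were -0.59 (-0.60 to -0.58) and 0.83 (0.80 to 0.87). The *Top2a* ratio outside the brain was thus no smaller than that within it, beside a panel median of 0.24 outside and 0.07 in the nonpallial brain. Transcripts per cell volume, which keep the depth of each run, were higher in the KO section for both genes, by a log2 ratio of 1.26 for *Ccnd2* and 2.80 for *Top2a*, so the direction for *Ccnd2* holds relative to the panel only. Segmented cells also differed in volume, with a median of 1211 in the control against 767 in the KO section for cells without *Top2a* in the pallium below the pial zone. The cell minimum moved the pallial ratios, which became -1.87 and 1.53 with 50 or more transcripts per cell and -0.99 and 0.41 with no minimum. With no minimum pallial *Ccnd2* was thus not past 2-fold. Nor was it in imaging plane 0 alone (-0.82) or in the highest pairing of single hemispheres (-0.92).

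The size of both differences depended on the place. Close to the ventricles, within 150 µm, the log2 ratio of *Ccnd2* was -0.31 (-0.35 to -0.26) in the pallium and -0.77 (-0.80 to -0.73) in the nonpallial brain, and in the pial zone it was -0.75 (-0.77 to -0.73). The lowest ratio was that of the cortical plate and its neighbouring layers, with 80964 CPM in the control against 24033 CPM in the KO section, a log2 ratio of -1.75 (-1.78 to -1.73). *Top2a* was higher in the KO section near the pallial ventricles by 0.33 (0.27 to 0.38) and near the nonpallial ones by 0.62 (0.55 to 0.70). Near the nonpallial ventricles *Ccnd2* was 28.6% of the total in the control against 16.8% in the KO section. That raises the *Top2a* ratio there, and a ratio without *Ccnd2* in the total was not computed. Farther out the direction was mixed. Pallial cells at 150 to 200 µm had 47443 CPM in the control against 38696 CPM in the KO section, and at 250 to 300 µm the levels were close, with 13935 and 13783 CPM. In the cortical plate and its neighbouring layers it was 2422 CPM in the control against 1645 CPM in the KO section (-0.56, interval -0.68 to -0.44), and in nonpallial cells beyond 600 µm 4080 and 1650 CPM (-1.31, interval -1.37 to -1.24). Pallial cells at 300 to 400 µm had more in the KO section, with 7293 and 10466 CPM, as had those at 400 to 600 µm, with 6515 and 7250 CPM, but beyond 600 µm they had 2612 and 2084 CPM. Nonpallial cells at 400 to 600 µm had 28979 and 16310 CPM. The same step need not hold like tissue in each section. The ventricle area found was smaller in the control, and 20806 of its 26125 nonpallial cells lay beyond 600 µm. In the KO section 25341 of 48755 did. Radial glia markers at 150 to 200 µm in the pallium had 151907 CPM in the control against 45147 CPM in the KO section. In nonpallial cells they had 38906 and 15739 CPM at 400 to 600 µm and 13494 and 6181 CPM beyond 600 µm. At 40 to 60 µm they were close there, with 233668 and 225185 CPM. Their part in the *Top2a* differences was not tested. In classes named for neurons, taken over a whole region away from the pial edge, *Top2a* was mostly higher in the KO section. The limit of 3 marker transcripts selects by depth here too. Striatal neuron-like cells were 5.55% of control and 13.1% of KO cells, so a class may hold unlike cells in each section. Nonpallial cells of the upper-layer or immature class had 16480 and 38656 CPM of *Top2a*, far above nonpallial deep-layer neuron-like cells with 1390 and 2600 CPM. The log2 ratio was 0.32 (0.09 to 0.57) in pallial and 0.90 (0.34 to 1.52) in nonpallial deep-layer neuron-like cells, 1.05 (0.95 to 1.15) and 1.23 (1.05 to 1.42) in upper-layer or immature projection neuron-like cells, and 1.70 (1.47 to 1.93) in nonpallial striatal neuron-like cells. In MGE interneuron-like cells it was 0.47 (0.28 to 0.67) in the nonpallial brain, where most of them lay, and -0.13 (-0.67 to 0.45) in the pallium. In nonpallial *Slc17a6*/*Tcf7l2* cells the interval also included 0. The *Ccnd2* ratio was below 0 in most classes and places, but it was 0.07 (-0.01 to 0.15) in nonpallial upper-layer or immature projection neuron-like cells. Its interval included 0 in mural-like cells outside the brain (-0.27 to 0.01) and in nonpallial microglia or macrophage-like cells (-0.38 to 0.01).

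The hemispheres of the control section differed in pallial *Top2a*. It was 17743 CPM in one control hemisphere and 8998 CPM in the other, against 18501 and 17883 CPM in those of the KO section, so that the log2 ratio ran from 0.01 to 1.04 over the 4 pairings. Near the pallial ventricles alone the range was 0.09 to 0.59. In the nonpallial brain the control hemispheres were closer, with 10652 and 9009 CPM, and the ratio ran from 0.56 to 0.95. Near the nonpallial ventricles they had 55034 and 54924 CPM, with ratios of 0.51 to 0.75. Those ratios too rest on totals with unequal *Ccnd2* shares. Pallial *Ccnd2* was 165405 and 135264 CPM in the control hemispheres and 56515 and 71477 CPM in those of the KO section, and the ranges did not overlap (log2 ratio -1.55 to -0.92). The pallial difference in *Top2a* was not larger than the spread between the control hemispheres, whereas that in *Ccnd2* was. Hemispheres of 1 section are no replicates of a genotype.

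Some cells were dominated by *Ccnd2*. They are described as those in which it supplied 50% or more of the panel transcripts, a limit set on *Ccnd2* itself and on cells of unequal depth, so their counts are no separate evidence of a difference. They were 41.3% of the pial zone in the control (38.8 to 43.8%) against 17.5% in the KO section (16.0 to 19.2%). In the cortical plate and its neighbouring layers they were 217 of 7406 control cells and 43 of 13062 KO cells, and held 41.4% and 14.3% of the *Ccnd2* transcripts there. *Reln* was 41316 CPM of the transcripts other than *Ccnd2* in these control cells and 1663 in the other cells of the same place, and 50536 and 1350 in the KO section. The dominated cells near the nonpallial ventricles, 155 of 779 in the control section and 16 of 3742 in the KO section, were of another kind. No *Reln* transcript was counted in them. *Reln* was also low in the other cells there, at 56.6 and 212 CPM, so this count does not set them apart from their neighbours. *Top2a* was 141718 CPM of the transcripts other than *Ccnd2* in the control cells and 161404 in the KO cells, against 68778 and 101741 in the other cells there. The *Ccnd2* level also depended on the imaging plane in the control section, where it was 77501 CPM in plane 0 and 119382 CPM in plane 6 while the number of panel molecules fell from 1014189 to 239449. In the KO section the same planes had 51485 and 62290 CPM. In plane 0 alone the log2 ratio of *Ccnd2* over the section was -0.59 and that of *Top2a* 0.47, and the part of the planes in the differences was not tested.

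*Cdkn1a* was far below both members, at 1296 CPM in the control against 1786 CPM in the KO section. In the pallium no difference was detectable at this depth, with 563 and 571 CPM and a log2 ratio of 0.02 (-0.14 to 0.18). Outside the brain it was 2257 and 4420 CPM, a log2 ratio of 0.97 (0.89 to 1.05).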

How the data were processed

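One coronal section per genotype was imaged on a MERSCOPE instrument with 500 gene barcodes and 50 blank barcodes. The authors deposited counts of decoded transcripts per segmented cell, positions of all molecules over 7 planes, and a summed DAPI and PolyT signal and volume for each cell. Software version and segmentation model were not given in the sources used here. Cells with 20 or more panel transcripts were kept, blanks were left out, and summed counts were scaled to CPM. Unless stated otherwise the totals include both members, so a high *Ccnd2* share lowers the CPM of *Top2a*. No doublet removal was made, so a segmented cell can hold RNA of its neighbours. Shares used cells thinned to 25 transcripts. On a 10 µm grid the brain was outlined, the pallium was taken where pallial outnumbered subpallial genes, and ventricles were enclosed gaps bordered by radial glia markers at 2-fold or more. The area taken as ventricle was 0.177 mm² in the control against 0.289 mm² in the KO section. A control gap of 0.0795 mm² at 0.981-fold and a KO gap of 0.051 mm² at 1.24-fold were left out. Distances run between centres of grid squares, so none falls between 0 and 10 µm outside the edge. A cell joined a class with 3 or more transcripts of 2 or more of its markers and more than of any other class. Odds ratios were Mantel-Haenszel estimates over depth strata, whose method was tested on simulated data. Intervals are exact 95% Poisson (sums) or binomial (shares, and ratios conditional on the total). All cover counting error only. Intervals of odds ratios took cells as the unit and served only to sort the alternatives.

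Genes named beside the members were the 5 most like each by the lower Spearman rho of both sections (100 µm squares with 500 or more transcripts) and the 5 most raised in its cells (1 of these for *Top2a* is not reported here), with the panel genes of the cell cycle list. In pallial squares, profile markers were named after their values were seen. Members and lists were chosen with earlier results of these data known. After the data were seen, *Meis2* was dropped from the subpallial genes because it shrank the pallium, and the pial zone of 40 µm, the *Ccnd2*-rich cells and the *Eomes* and *Dlx1* cells were defined. Alternatives covered the cell minimum, depth, scaling, planes, outlines, class rule and bins. Python 3.11.15, numpy 2.4.6, pandas 2.3.3, scipy 1.17.1 and matplotlib 3.10.9 were used.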

Additional observations from a re-analysis of the deposited data

How the results depend on the processing

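No paired analysis was possible because each genotype had 1 section. Of 110 alternative values 22 stayed within the interval or margin of the value reported, 86 moved outside it and 2 changed direction. The 2 were the log2 ratios of *Ccnd2* per cell volume, at 1.26 over the section and 1.03 in the pallium, where *Top2a* gave 2.80 and 2.83. This scale keeps the differences in depth and in cell volume. With no minimum, a minimum of 10 and a minimum of 50 transcripts per cell, the ratio of *Ccnd2* was -0.78, -0.78 and -1.09 over the section and -0.99, -1.02 and -1.87 in the pallium, and that of *Top2a* was 0.51, 0.56 and 1.29, and 0.41, 0.44 and 1.53. With the KO section thinned to control depth the section ratios were -0.78 and 0.68 and the pallial ones -1.05 and 0.60. Setting the panel median to 0 gave -0.86 and 0.69 over the section and -1.12 for pallial *Ccnd2*. All decoded molecules gave -0.81 and 0.57, and -1.05 and 0.44 in the pallium, and plane 0 gave -0.59 and 0.47, and -0.82 and 0.35. Pallial *Ccnd2* was -1.14 without the 1% largest cells, -1.16 without *Eomes* and *Lhx2* in the outline, and -1.55 and -0.92 as the lowest and highest hemisphere pairing, for which *Top2a* gave 0.01 and 1.04. With *Meis2* kept, chosen after seeing the data, the pallial ratios were -1.24 and 0.26. Without cells of 50% or more *Ccnd2*, also chosen then, *Ccnd2* was -0.41 over the section and -0.57 in the pallium. This limit is set on *Ccnd2* itself and lowers its level in each section. In radial glia-like cells anywhere, *Ccnd2* (102932 CPM in the control, 86584 in the KO section) became 97981 and 86048 with 4 marker transcripts, 138627 and 110760 without the marker genes in the total, and 82345 with the KO section thinned. *Top2a* (40451 and 72316 CPM) became 41788 in the control with no minimum, 54479 and 92508 without the marker genes, and 74776 with the KO section thinned. The pallial *Top2a* difference by distance became 4.05 with no minimum and with all molecules in the control, 5.04 and 5.35 from squares rich in radial glia markers, and 4.63 with the KO section thinned. The nonpallial *Ccnd2* difference became 2.94 (no minimum) in the control, 2.03 and 2.22 from such squares, 2.84 and 3.39 with all molecules, and 3.52 with thinning. The log2 difference of *Ccnd2* between the pial zone and 100 to 200 µm below the edge (2.91 and 3.57) became 2.94 (no minimum) in the control, 2.73 and 3.45 with all molecules, 3.62 with thinning, and, chosen after seeing the data, 3.12 and 4.06 for a zone of 20 µm and 2.62 and 3.02 for 60 µm. The odds ratio became 4.18 and 10 with 2 transcripts of each gene, 5.46 in the control with no strata, 5.85 and 10.2 in the pallium, 4.78 in the control nonpallial brain, 1.49 and 1.78 outside, and 4.52 with the KO section thinned. In plane 0 the share in no cell was 24.9% for control *Ccnd2*, and 18.1% and 22.4% for *Top2a*. The DAPI ratio with 2 *Top2a* transcripts was 1.65 and 1.82. The rho of *Ccnd2* with *Top2a* was 0.53 in control squares of 50 µm and 0.32 and 0.50 in pallial squares, and that of *Top2a* with *Mfge8* was 0.69 and 0.81 in the KO section. The cause of these shifts was not tested. Depth limits the control section most, with 50.9% of its cells at the minimum against 92% in the KO section.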
